A study of Schizosaccharomyces pombe with 2 samples.

Results

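A 60-kb interval of chromosome 2, labelled as the mating-type interval, was examined on 2 tiling arrays of fission yeast (Schizosaccharomyces pombe) RNA. Its members are the non-control probes that start and end inside it, from 2100011 to 2159970, 1199 of the 43993 probes on the array, of which 599 are on the plus and 600 on the minus strand. Each array held RNA of a mutant labelled with Cy5 (red) and RNA of wild-type cells labelled with Cy3 (green). The mutants were asf1-1, a mutant allele of asf1, and a deletion of hip1, written ∆hip1 in the text that follows. All cultures were in logarithmic growth in the rich medium YEA at 30 °C, and the RNA was total RNA depleted of ribosomal RNA and labelled indirectly as cDNA. There was 1 array per mutant, no dye swap and no replicate, so nothing was tested and no p-values are given. The SD beside a value is over probes, which share an array, and covers differences between spots only.

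Fission yeast cells carry an expressed mating-type cassette, mat1, and the silent donor cassettes mat2 and mat3, which share sequence with it. The silent cassettes lie in heterochromatin, where methylated histone H3 is bound by the HP1 protein Swi6, and inverted repeats border that silent domain. Asf1 is a chaperone of histones H3 and H4, and Hip1 belongs to the HIRA complex, which places histones on DNA outside replication. In the RefSeq gene table (ASM294v3) the mat1 genes mat1-Mi and mat1-Mc are followed by 6 protein-coding genes, then by mat3-Mi and mat3-Mc. The genes between include mag2, a DNA glycosylase gene, rpt6, a proteasome ATPase gene, and rpp202, a ribosomal protein gene, and the genes emc3, mtd1, srp40 and rpl401 come after mat3. No file links probes to genes, and the sources used here do not give the build of the probe positions, so no probe was assigned to any of these genes, and the label could not be checked by gene. Positions and strands are those listed for the probes.

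The centre of the interval held a silent stretch. In bins of 1 kb over both strands, the median log2 signal of the 4 channels was under 8.51, the 25th percentile of such bins in the long tiled block of chromosome 2, in 10 consecutive bins from 2130001 to 2140000. The bins of this stretch lay between 6.48 and 8.06 with a median of 7.21, against a median of 9.34 in the flanks and 9.50 in the long block. The long block held 513 dim bins among 2050, in 315 runs. Just 2 of these runs reached 10 bins, this stretch and a run of 23 kb from 1614001 to 1637000. Inside the interval, shorter dim runs lay from 2115001 to 2120000 (5 kb) and from 2105001 to 2108000 (3 kb), and 4 single bins were dim as well. The edges depend on the limit: a limit at the 35th percentile, or the wild-type channels alone, gave a stretch of 25 kb from 2115001 that ended at the same place.

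**Figure D1:**
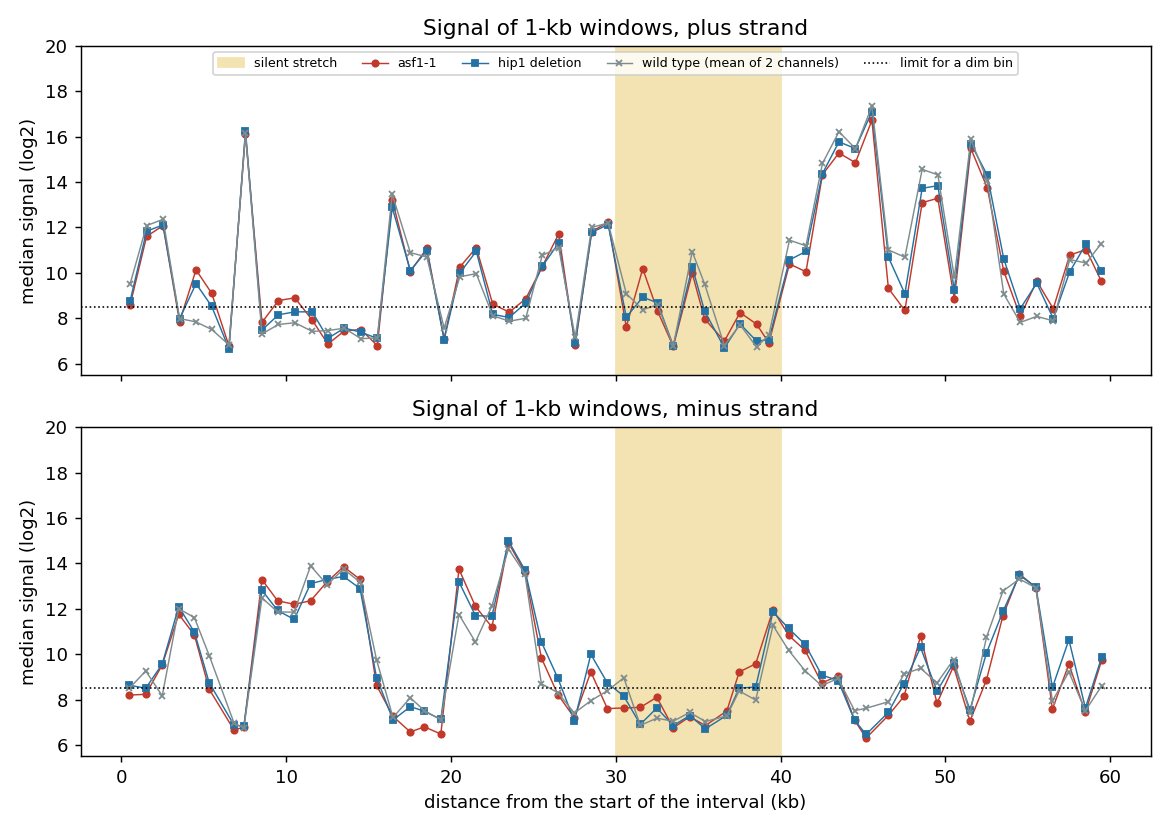
Median log2 signal of 1-kb windows on the plus strand (upper panel) and the minus strand (lower panel) against the distance from the start of the interval in kb, for asf1-1, ∆hip1 and wild type (mean of the 2 wild-type channels). The shaded silent stretch spans 30 to 40 kb, and most of its windows lie near or under the dotted limit of 8.51, while windows of the flanks reach above 16.

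Of the 1199 members, 13 were outlier spots on at least 1 array and 129 were not well above background in any channel, which left 1057. The share lost was largest in the silent stretch, where 149 of 200 probes remained (72 plus, 77 minus), against 532 of 600 in the left flank and 376 of 399 in the right flank. A probe that entered through a mutant channel alone was kept for being bright there, so counts and medians over the stretch describe the probes that could be measured and not all of them. Without that filter the median log2 ratio of the stretch was 0.10 on the plus and 0.12 on the minus strand in asf1-1, and 0.00 and 0.08 in ∆hip1.

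More stretch probes stood above background in the mutant channels than in the wild-type channels. In asf1-1 73.9% of 199 stretch probes were well above background, against 43.2% in wild type on the same array. In ∆hip1 58.8% were, against 43.2% in wild type on that array. The mutant channel was the red channel on both arrays, and over all probes it also held more above background, 93.8% in asf1-1 and 88.6% in ∆hip1, against 79.2% and 78.6% in the wild-type channels of those arrays. Dye and genotype cannot be told apart in these shares. In the flanks 91.4% of probes were above background in asf1-1 and 86.3% in ∆hip1, against 78.2% and 78.5% in wild type.

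The flanks held strongly strand-specific signal, and the stretch less of it. One strand was at least 2-fold brighter than the other in wild type in 6 of 10 bins of the stretch and in 44 of 50 bins of the flanks. The median size of the difference between strands was 1.33 on the log2 scale in the stretch and 3.79 in the flanks. The stretch was chosen for a dim median over both strands, which disfavours bins with a bright strand. Its smaller difference between strands therefore follows in part from that choice.

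Across the whole array, 850 probes were outliers, 0 were saturated, and 40664 probes and 4380 windows (1 kb of 1 strand, at least 3 probes) were used. The median log2 ratio before normalization was 0.84 in asf1-1 and 0.14 in ∆hip1. Loess sets the middle of each array near 0, so an overall gain or loss of RNA would not show, and ratios below are relative to that middle.

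The stretch as a whole stood little above its pooled flanks in asf1-1 and hardly at all in ∆hip1, and the flanks differed between their sides. In asf1-1 the median log2 ratio of the stretch was 0.19 ± 0.99 on the plus strand (SD over 72 probes), against -0.11 ± 0.97 in the flanks (465 probes). On the minus strand it was 0.27 ± 0.92 in the stretch (77 probes), against 0.03 ± 0.97 in the flanks (443 probes). These differences between regions are smaller than the spread between probes. On the plus strand in asf1-1 the left flank, at 0.14, was close to the stretch, and the right flank was at -0.63. On the minus strand in ∆hip1 the right flank, at 0.18, was above the stretch. In ∆hip1 the plus-strand median was -0.00 ± 0.64 in the stretch and -0.13 ± 0.77 in the flanks, and the minus-strand median was 0.10 ± 0.60 in the stretch and 0.02 ± 0.87 in the flanks. Dim bins elsewhere in the long block, with 8341 probes, had medians of -0.09 in asf1-1 and -0.10 in ∆hip1. The size of the difference between stretch and flanks depends on the scaling: in asf1-1 on the plus strand it was 0.30, but 0.87 with the scanner log ratio and 0.78 with loess fitted on bright probes.

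**Figure D2:**
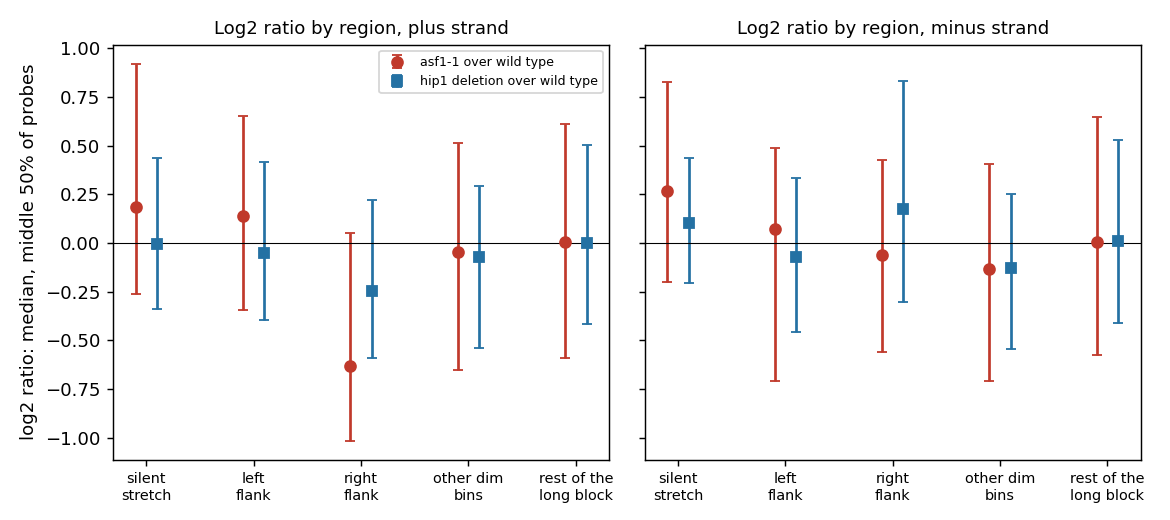
Median log2 ratio over wild type for asf1-1 and ∆hip1 in the silent stretch, the left flank, the right flank, the other dim bins and the rest of the long block of chromosome 2, for the plus strand (left panel) and the minus strand (right panel). Bars span the middle 50% of probes. They overlap between all regions, and the lowest median is that of the right flank on the plus strand in asf1-1, at -0.63.

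The 2 mutants differed in the stretch by a small amount. The log2 ratio of asf1-1 minus that of ∆hip1 had a median of 0.23 ± 0.50 over the 149 probes of the stretch and was above 0 for 104 of them. Of the 149, 27 were above background in asf1-1 alone, which favours asf1-1 in this difference. Without the filter on dim probes the median over 199 probes was 0.11 ± 0.46, and over the 79 probes above background in all 4 channels it was 0.16 ± 0.50. In the left flank the median was 0.07 ± 0.47 and in the right flank -0.30 ± 0.49. Over dim bins elsewhere it was 0.01 ± 0.51. Over the 149 filtered probes the mutant channels differed by 0.21 in the median, while the wild-type channels differed by 0.01. The filter favours asf1-1 in the mutant channels too. The difference of the ratios kept its sign under each of the alternatives run, from 0.07 with the authors' series table to 0.41 with loess on bright probes.

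Among 1-kb windows, 3 of the 20 in the stretch were at least 2-fold higher than wild type in asf1-1 and 1 was at least 2-fold lower. Over the whole array 13.6% of windows were higher and 7.44% lower in asf1-1. In dim bins elsewhere in the long block, 5.09% of 963 windows were higher and 8.52% lower. No window of the stretch passed 2-fold in ∆hip1 in either direction, where 12.7% of all windows were higher and 3.61% lower. In the dim bins elsewhere 2.80% of windows were higher and 5.30% lower in ∆hip1. The highest window of the stretch in ∆hip1 had a log2 ratio of 0.76. These counts depend on the scaling and the filter. In ∆hip1 the scanner log ratio placed 4 of the 20 windows above 2-fold and 2 below, and median centring placed 3 above and 0 below. In asf1-1 the scanner log ratio placed 9 above and 2 below, median centring 8 above and 0 below, and the absence of a filter on dim probes left 1 above and 0 below.

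The higher windows of the stretch lay in a pair of places near its ends, on opposite strands. The plus-strand window from 2131261 to 2132020 had a log2 signal of 10.18 in asf1-1 and 8.93 in ∆hip1, against 8.55 and 8.20 in wild type on those arrays. The ratio on the log2 scale was 1.51 ± 0.97 in asf1-1 and 0.76 ± 0.64 in ∆hip1, with 7 of 8 probes above 0 on each array. The minus-strand window from 2138011 to 2138970 had a log2 signal of 9.57 in asf1-1 and 8.55 in ∆hip1, against 8.19 and 7.75 in wild type. Its ratio was 1.20 ± 0.90 in asf1-1 and 0.61 ± 0.42 in ∆hip1, with 6 of 7 probes above 0 on each. Without the filter on dim probes that window was under 2-fold, with 0.65 in asf1-1 and 0.34 in ∆hip1. The neighbouring minus-strand window from 2137011 to 2137970 had 1.40 ± 1.26 in asf1-1 and 0.71 ± 0.76 in ∆hip1 over 8 probes. It misses the rule for named windows, because fewer than 80% of its probes were above 0, and is given since it completes the 3.

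Within these windows the change was carried by runs of neighbouring probes, a unit chosen after the data were seen. On the plus strand 8 probes in a row from 2131561 to 2132320 were at least 2-fold higher in asf1-1, with ratios of 1.21 to 2.71 and a median of 2.11 ± 0.47. Their median log2 signal was 10.96 in asf1-1 and 9.73 in ∆hip1, against 8.76 and 8.56 in wild type. In ∆hip1 the same probes had a median ratio of 0.98 ± 0.25. Of the 8, 7 were above background in all 4 channels, and the wild-type signal of the other was at background. The ratio of that probe is a lower bound only if both dyes detect dim RNA equally, which was not tested.

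On the minus strand the matching runs were 5 probes from 2137511 to 2137970 and 3 probes from 2138111 to 2138370. The first had a median ratio of 2.25 ± 0.62 in asf1-1, with a median log2 signal of 11.08 in asf1-1 and 8.89 in wild type, and of 1.21 ± 0.41 in ∆hip1, with 9.81 in ∆hip1 and 8.60 in wild type. The second had 1.87 ± 0.55 in asf1-1 and 1.01 ± 0.17 in ∆hip1. The 3 runs were chosen for being 2-fold higher in asf1-1, so their height on that array, and the order of the mutants in them, follow in part from the choice.

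A further place on the minus strand lay at the right edge of the stretch, where wild type was no longer dim. The 3 probes from 2139711 to 2139970 had a median log2 signal of 12.84 in asf1-1 and 12.77 in ∆hip1, against 11.61 and 11.67 in wild type. Their median ratio was 1.23 ± 0.13 in asf1-1 and 0.80 ± 0.28 in ∆hip1.

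The single lower window of the stretch was on the plus strand at its left edge, from 2130261 to 2131020, with -1.14 ± 0.93 in asf1-1 and -0.95 ± 0.84 in ∆hip1 over 8 probes. With median centring it had -0.30 in asf1-1 and -0.38 in ∆hip1. Loess on bright probes, and the absence of a filter on dim probes, also left no lower window of the stretch in asf1-1. The window holds the only run of lower probes in the stretch, 4 probes from 2130461 to 2130820. Their median log2 signal was 7.62 in asf1-1 and 8.05 in ∆hip1, against 9.12 and 9.38 in wild type. The median ratio was -1.5 ± 0.16 in asf1-1 and -1.21 ± 0.14 in ∆hip1, and the run passed 2-fold on both arrays.

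**Figure D3:**
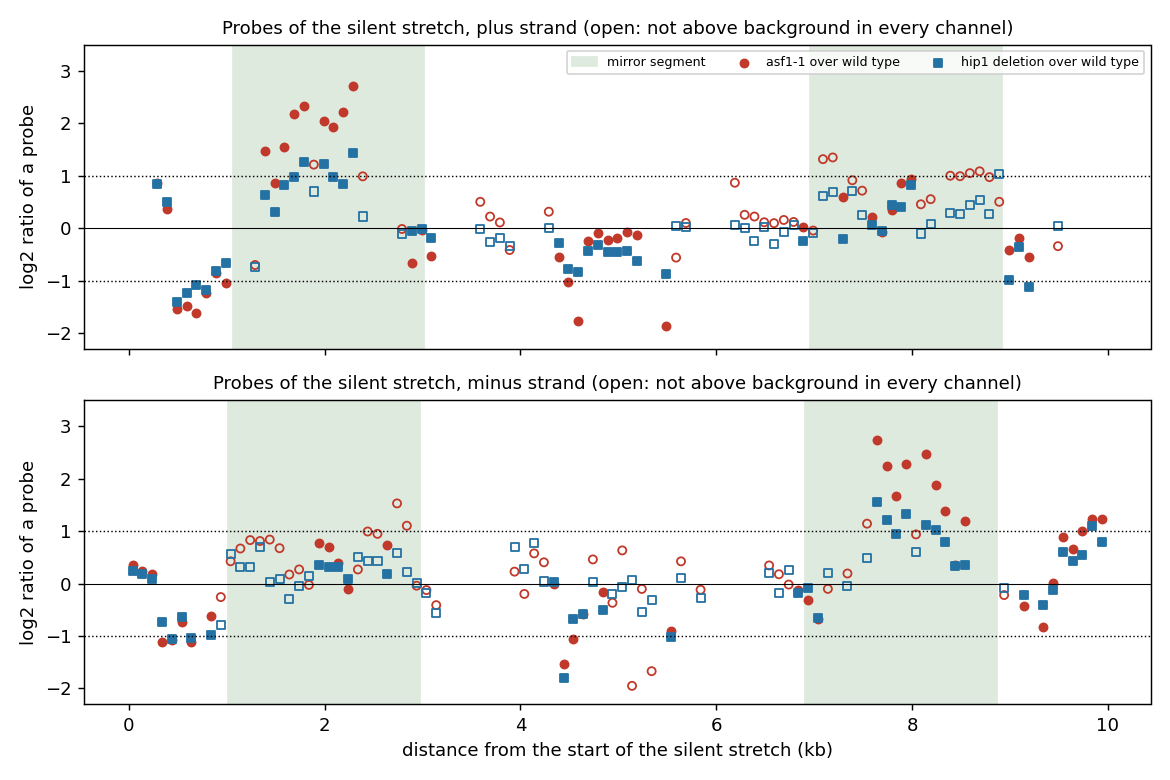
Log2 ratio of each probe of the silent stretch over wild type in asf1-1 and ∆hip1, against the distance from the start of the stretch in kb, for the plus strand (upper panel) and the minus strand (lower panel). Open symbols mark probes not above background in every channel, dotted lines mark 2-fold, and shading marks the mirror segments described in the text. The highest probes, up to 2.71 on the plus strand and 2.73 on the minus strand, lie in the left mirror segment on the plus strand and in the right mirror segment on the minus strand, both in asf1-1.

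The runs near the ends of the stretch were mirror images of each other. When the 2-kb segment on the plus strand from 2131061 to 2133020 was set against the minus strand in reverse order, its wild-type signal matched the segment from 2136911 to 2138870, with a Pearson r of 0.97 and a Spearman rho of 0.92 over 20 probe pairs. The median difference in wild-type log2 signal within a pair was 0.17. No other of 20437 reflected positions in the long block gave a higher r or a smaller difference, and the next best more than 2 kb away had an r of 0.84. The opposite strands of the same segments also matched, with an r of 0.93, a rho of 0.82 and a median difference of 0.14 over 19 pairs. That again was the best of all reflected positions, here 20387, and the next had an r of 0.89. These segments were chosen after the data were seen, and the correlations are across probes of the same arrays, so they are a description of these profiles.

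The mutant ratios were mirrored as well, over segments that had been placed around runs of probes higher in asf1-1, so they are no independent evidence. In asf1-1 the plus-strand probe at 2132261 had a ratio of 2.71 and its partner on the minus strand at 2137611 had 2.73. The plus-strand probe at 2131761 had 2.33 and its partner at 2138111 had 2.47. Between them, 2131861 had a lower ratio of 1.21, and its partner at 2138011 had 0.94. In ∆hip1 these pairs had 1.43 and 1.55, 1.26 and 1.12, and 0.70 and 0.61. Over the 20 pairs r was 0.96 in asf1-1 (rho 0.96) and 0.85 in ∆hip1 (rho 0.84), and over the 19 pairs of the opposite strands it was 0.89 (rho 0.83) and 0.60 (rho 0.59). Probes over like sequence read the same RNA, so signal from the left and the right segment cannot be told apart, and whether the segments hold like sequence was not tested, since the files give no probe sequence.

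**Figure D4:**
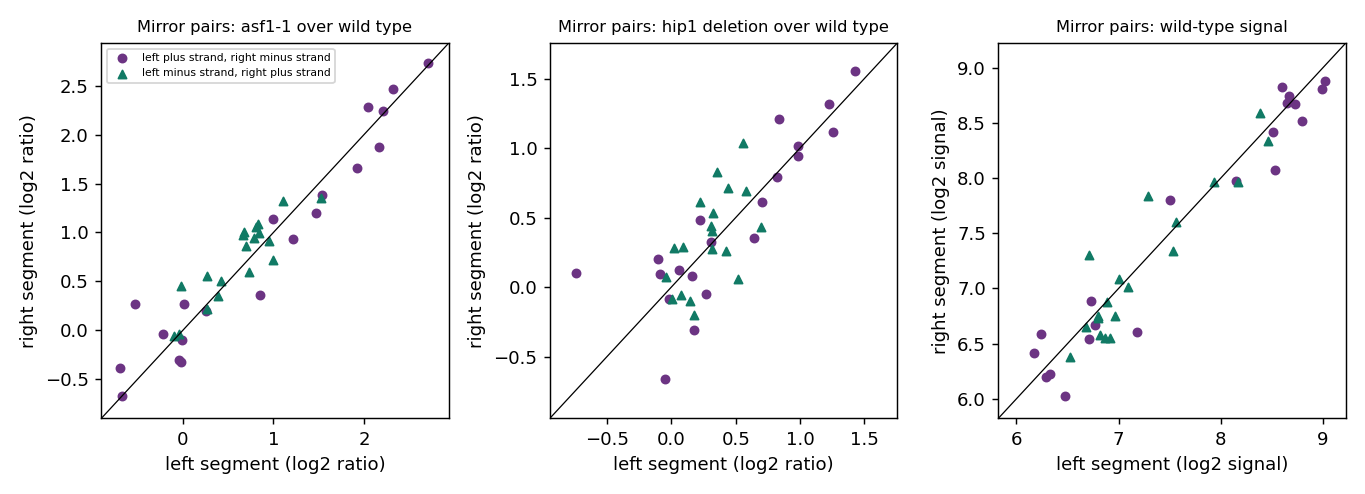
Each point is a pair of probes at mirrored places of the left and right segments, with the left probe on the x axis and the right probe on the y axis: log2 ratio in asf1-1 (left panel), log2 ratio in ∆hip1 (middle panel) and mean wild-type log2 signal (right panel). Points of asf1-1 and of the wild-type signal lie along the line of equal values, and asf1-1 pairs reach 2.71 on the left and 2.73 on the right. ∆hip1 points scatter more widely for their range, with pairs that differ by up to 0.84.

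Of the 28 probes of the stretch at least 2-fold higher in asf1-1, 25 lay in the mirror segments. Of the 68 probes of the segments that passed the filter, 25 were higher in this way and 0 lower. In the rest of the stretch 3 of 81 probes were higher and 15 lower. Wild-type signal was not above background on either array for 31 of the 68 and 26 of the 81. Those probes were kept for a mutant channel, which favours higher ratios. If the segments hold like sequence, which was not tested, the 68 count the same RNA more than once. Over all probes of the array 16.6% were higher and 13.5% lower in asf1-1. In ∆hip1 9 of the 68 were at least 2-fold higher and 0 lower, against 1 higher and 9 lower of the 81 others, where 14.9% of all probes were higher and 7.41% lower. The median log2 ratio in asf1-1 was 0.86 ± 0.81 in the mirror segments and -0.12 ± 0.72 in the rest of the stretch, and in ∆hip1 it was 0.36 ± 0.47 in the segments and -0.24 ± 0.55 in the rest. The segments had been drawn from these values in part, so this is a description. Over the scalings and filters run, the difference between segments and rest ranged from 0.83 to 2.02 in asf1-1 and from 0.40 to 1.45 in ∆hip1. These alternatives use the same spots, and the segments were placed around runs higher in asf1-1, so the constant sign is no support.

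Within the segments both strands were higher in asf1-1, by unequal amounts. In the left segment the median ratio was 1.48 ± 1.11 on the plus strand (15 probes) and 0.70 ± 0.42 on the minus strand (19 probes). In the right segment it was 0.86 ± 0.41 on the plus strand (19 probes) and 1.20 ± 1.08 on the minus strand (15 probes). In ∆hip1 the medians were 0.70 ± 0.61 and 0.31 ± 0.21 in the left segment and 0.29 ± 0.34 and 0.61 ± 0.61 in the right segment, on the plus and minus strand in that order. Wild-type signal was not above background on either array for 12 of the 19 probes on the minus strand of the left segment and 12 of the 19 on the plus strand of the right segment, so those ratios were taken over a wild-type signal that was not measured. With the mutant channel above background, such a ratio is a lower bound only if both dyes detect dim RNA equally, which was not tested. The mutant channel was above background for 12 of these probes in asf1-1 and 9 in ∆hip1 on the left. On the right it was so for 11 in asf1-1 and 8 in ∆hip1. The ratios of the other probes bound nothing.

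The middle of the stretch held a short place of bright plus-strand signal, which changed little in asf1-1. The 6 plus-strand probes from 2134661 to 2135220 had wild-type log2 signals of 13.22 to 14.16, while the probes next to them had 8.65 and 6.57. Their median log2 signal was 13.36 in asf1-1 and 12.99 in ∆hip1, against 13.50 in wild type. The median ratio was -0.15 ± 0.07 in asf1-1 and -0.44 ± 0.10 in ∆hip1. Both mutants were below wild type here by less than 2-fold, and ∆hip1 was again the lower of the pair.

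A matching place lay 18.4 kb to the left, in the dim run of the left flank. Its 6 plus-strand probes from 2116261 to 2116820 had wild-type signals of 13.39 to 14.20. They had a median log2 signal of 13.32 in asf1-1 and 13.0 in ∆hip1, against 13.56 in wild type, and median ratios of -0.27 ± 0.10 in asf1-1 and -0.50 ± 0.05 in ∆hip1. Among 541 shifts of the 2-kb plus-strand segment around the stretch probes within the interval, this shift had the highest r, 0.86 over 20 pairs (rho 0.66). In the long block 15 of 20348 shifts had a higher r, up to 0.96, and the minus strands did not match, with an r of 0.37. The likeness therefore rests on the 6 bright probes. If they hold like sequence, which was not tested, their signals cannot be told apart.

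On the minus strand 3 probes at the left edge, from 2130011 to 2130270, were the brightest of the stretch. The first of them, at 2130011, had a log2 signal of 17.67 in asf1-1 and 17.57 in ∆hip1, against 17.31 and 17.32 in wild type, and ratios of 0.36 in asf1-1 and 0.24 in ∆hip1. The probe after these 3, at 2130311, had 7.94 in asf1-1 and 8.59 in ∆hip1, against 9.05 and 9.32 in wild type. The probes on either side of this step lie in the first bin of the stretch.

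In the whole interval, asf1-1 had 13 of 120 windows 2-fold or more above wild type and 11 below, and ∆hip1 had 12 above and 1 below. These are 10.8% above and 9.17% below in asf1-1 and 10% above and 0.833% below in ∆hip1, to be read against the shares of all windows given above. The split depends on the scaling. Loess on bright probes, which moves the median of all probes to 0.24 in asf1-1 and 0.16 in ∆hip1, placed 21 windows above and 5 below in asf1-1, and median centring placed 19 above and 10 below in ∆hip1. The arrays may share a wild-type extract, so their values are set side by side and no likeness between them is given.

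**Figure D5:**
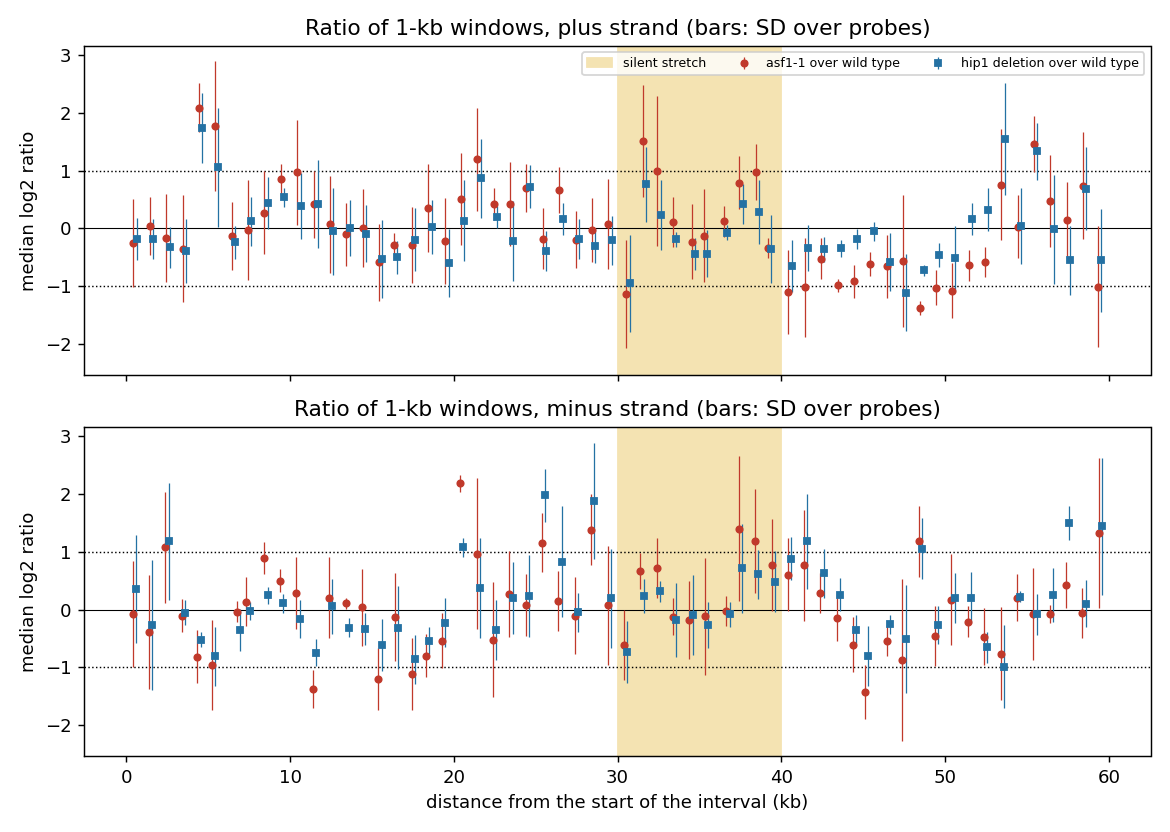
Median log2 ratio of 1-kb windows over wild type in asf1-1 and ∆hip1 against the distance from the start of the interval in kb, for the plus strand (upper panel) and the minus strand (lower panel). Bars are the SD over probes and dotted lines mark 2-fold. In asf1-1 the plus-strand windows of the right flank between 40 and 53 kb are all below 0, and the highest window, 2.18 on the minus strand, lies in the left flank.

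The highest window of the interval lay in the left flank, on the minus strand from 2120011 to 2120970. Its log2 signal was 13.75 in asf1-1 and 13.18 in ∆hip1, against 11.51 and 11.98 in wild type. All 10 probes were higher on both arrays, with a median ratio of 2.18 ± 0.15 in asf1-1 and 1.08 ± 0.16 in ∆hip1. With a median difference of 1.1 ± 0.13 over its probes, it was the single window of the interval in which the mutants differed by 2-fold. Part of that gap lay in the wild-type channels, at 11.51 and 11.98, and part in the mutant channels, at 13.75 and 13.18. With the wild-type channels exchanged between the arrays the ratios were 1.70 in asf1-1 and 1.52 in ∆hip1, and the gap was 0.14. The exchange turns the sign of the wild-type difference and does not remove it. The value of 0.14 is therefore not the gap between the mutants alone. Median centring gave 1.29 in asf1-1 and 0.37 in ∆hip1. Over the whole array asf1-1 exceeded ∆hip1 by 2-fold or more in 1.26% of windows and fell under it by as much in 0.959%. The run of higher probes that starts there held 13 probes up to 2121270 in asf1-1 and 8 probes up to 2120770 in ∆hip1.

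On the plus strand of the left flank the windows from 2104061 to 2105020 and from 2105061 to 2105920 formed 1 locus. The first had a log2 signal of 10.13 in asf1-1 and 9.52 in ∆hip1, against 8.01 and 7.66 in wild type, and ratios of 2.09 ± 0.43 in asf1-1 and 1.73 ± 0.61 in ∆hip1. The second had 1.77 ± 1.13 and 1.06 ± 1.03, with wild-type signal at background on both arrays for 4 of its 9 probes. The run of higher probes spanned 18 probes from 2103961 to 2105720 in asf1-1 and 14 probes in ∆hip1, in part over the dim run of 3 kb. The gain in the mirror segments is thus matched or passed in size outside the silent stretch.

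Windows of the left flank on the minus strand included some that were higher in ∆hip1 than in asf1-1, relative to wild type. From 2125011 to 2125970 the log2 signal was 9.83 in asf1-1 and 10.54 in ∆hip1, against 8.71 and 8.67 in wild type, and the ratio was 1.16 ± 0.51 in asf1-1 and 1.98 ± 0.46 in ∆hip1. From 2128011 to 2128970 the ratio was 1.39 ± 0.62 in asf1-1 and 1.88 ± 1.00 in ∆hip1, a gap under the SD. All 10 probes were above 0 on both arrays, but for 4 of them wild-type signal was not above background on either array. With median centring this window had 2.60 in asf1-1 and 2.65 in ∆hip1. From 2102011 to 2102970 the ratio was 1.08 ± 0.96 in asf1-1 and 1.18 ± 1.01 in ∆hip1, a gap far under the SD.

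In the right flank the window from 2157011 to 2157970 on the minus strand passed 2-fold in ∆hip1 and not in asf1-1. The log2 signal was 9.56 in asf1-1 and 10.63 in ∆hip1, against 9.20 and 9.23 in wild type, and the ratio was 0.43 ± 0.40 in asf1-1 and 1.5 ± 0.30 in ∆hip1, with 10 of 10 probes above 0 on both. The median difference between the mutants over its probes stayed under 2-fold. The plus-strand window from 2153061 to 2154020 had 0.76 ± 0.96 in asf1-1 and 1.54 ± 0.96 in ∆hip1, and the minus-strand window from 2141011 to 2141970 had 0.77 ± 0.96 and 1.18 ± 0.82. The plus-strand window from 2155061 to 2156020 passed 2-fold in both, with 1.46 ± 0.49 in asf1-1 and 1.33 ± 0.50 in ∆hip1, as did the minus-strand window from 2148011 to 2148970, with 1.18 ± 0.62 and 1.06 ± 0.53.

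Lower windows in asf1-1 clustered on the plus strand of the right flank, next to the stretch. The 13 plus-strand windows nearest to it, from 2140061 to 2153020, were all below 0 in asf1-1, between -1.38 and -0.53, and in ∆hip1 11 of the 13 were below 0, with a range of -1.11 to 0.32. This run was chosen after its values were seen. Over all plus-strand windows of the array 8.07% were at least 2-fold lower in asf1-1 and 3.60% in ∆hip1. Of the 20 plus-strand windows of the flank 6 (30%) were at least 2-fold lower in asf1-1 and 1 (5%) in ∆hip1. The median log2 ratio over its 192 plus-strand probes was -0.63 ± 0.92 in asf1-1 and -0.25 ± 0.81 in ∆hip1, and 26.6% of them were above 0 in asf1-1 and 37.0% in ∆hip1. This strand was bright, with a median log2 signal of 10.91 in asf1-1 and 11.04 in ∆hip1, against 10.80 and 10.92 in wild type.

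The lowest of these windows, from 2148161 to 2149020, had a log2 signal of 13.10 in asf1-1 and 13.73 in ∆hip1, against 14.56 in wild type on both arrays. Its ratio was -1.38 ± 0.12 in asf1-1 and -0.73 ± 0.10 in ∆hip1 over 9 probes, all below 0. The window from 2140061 to 2141020, which adjoins the stretch, had -1.11 ± 0.73 in asf1-1 and -0.66 ± 0.45 in ∆hip1. Those from 2141061, 2149061 and 2150061 had -1.02 ± 0.86, -1.03 ± 0.30 and -1.08 ± 0.48 in asf1-1, and -0.34 ± 0.40, -0.46 ± 0.21 and -0.52 ± 0.56 in ∆hip1. The window from 2147061 to 2148020 was the single lower window of ∆hip1, with -1.11 ± 0.66, against -0.57 ± 1.14 in asf1-1. The order of the mutants in it turns with the probes used: over those above background in all 4 channels it had -2.35 in asf1-1 and -1.42 in ∆hip1, and the means were -1.25 and -1.09. Its last 3 probes, from 2147761 to 2148020, had a median ratio of -2.39 ± 0.10 in asf1-1 and -1.56 ± 0.09 in ∆hip1. With median centring the window from 2150061 had -0.41 in asf1-1. With the wild-type channels exchanged between the arrays, the windows from 2140061, 2149061 and 2150061 had -0.99, -0.92 and -0.89 in asf1-1. Loess on bright probes gave these windows -0.82, -0.99 and -0.94. The window from 2147061 had -0.99 in ∆hip1 with the wild-type channels exchanged.

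On the minus strand 3 windows of the left flank were lower in asf1-1. The window from 2111011 to 2111970 had a log2 signal of 12.35 in asf1-1 and 13.11 in ∆hip1, against 13.86 and 13.91 in wild type, with ratios of -1.37 ± 0.33 and -0.74 ± 0.24. The windows from 2115011 to 2115970 and from 2117111 to 2117970, in the dim run of 5 kb, had -1.20 ± 0.54 and -1.12 ± 0.63 in asf1-1, against -0.61 ± 0.46 and -0.86 ± 0.42 in ∆hip1. Both stayed below 0 but under 2-fold in asf1-1 with median centring, at -0.44 and -0.58, and loess on bright probes gave -0.53 for the second. The dim run is defined over both strands, and on the minus strand the window from 2115011 was not dim. Its wild-type log2 signal was 9.91 beside asf1-1 and 9.59 beside ∆hip1, above the limit of 8.51. The window from 2117111 had 7.95 and 8.21 in wild type. In asf1-1 that dim window of the left flank was below wild type, and the median of the mirror segments was above it.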

How the data were processed

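The authors read the arrays with Agilent Feature Extraction 10.1.1.1, per the file headers. Their deposited median intensity values, for spots and for local background, carry no normalization. The deposited log10 ratio is background-subtracted and dye-normalized by the scanner software, per the file headers, and its deposited p-value describes 1 spot. The authors' series table holds log2 values that equal the scanner log ratio within 0.001, or 0 where that p-value was above 0.05.

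Median signals were corrected with normexp (offset 50) and scaled by a loess fit per array that gave control and outlier spots no weight, in limma 3.58.1 under R 4.3.3. Single-channel signals came from quantile normalization of the mean log2 intensity between arrays. Probes well above background in at least 1 of 4 channels were used. Python 3.11.15 with pandas 2.3.3 and numpy 2.4.6 made the tables, and matplotlib 3.10.9 the figures.

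The silent stretch is the run of 1-kb bins with the highest sum, where dim bins score 1 and other bins -1. A window is the median over probes of 1 strand in 1 kb, with at least 3 probes. A median signal and a median ratio are taken separately, so they need not subtract exactly. Named windows are, per array, the 12 highest and 12 lowest past 2-fold that hold 5 or more probes, 80% or more of them on the window's side, and those in which the mutants differ by 2-fold. The 1 probe that crosses the end of the interval entered no window.

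The region, the windows and the alternatives were chosen with earlier results of these data known. Runs of at least 3 neighbouring probes, the mirror and shifted segments, and the dim bins elsewhere as a background were added after seeing the data. The search for the stretch and the window medians were tested on simulated data with an evenly dim stretch between bright flanks. The real flanks held dim bins and the real stretch held bright probes, so that test does not bear on the edges of the stretch. The number of arrays, 2, limits the precision, and the sources used here do not say whether both wild-type channels were of a single extract. Probes over hip1 and asf1 could not be used to check the labels, since no probe is paired with a gene.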

Additional observations from a re-analysis of the deposited data

How the results depend on the processing

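No paired analysis was possible because the mutants had a single array each. Signs held for asf1-1 in the stretch against its flanks, except that the authors' series table, in which 53.5% of stretch probes are 0 in asf1-1, gave 0.00 on both strands. On the plus strand the difference, 0.30, was 0.87 with the scanner log ratio, 0.62 with median centring, 0.78 with loess on bright probes and 0.65 against 10 kb of flank. It fell to 0.17 without the filter on dim probes. On the minus strand, 0.24 became 0.65, 0.52 and 0.62 with the first 3 of these, 0.11 without that filter and 0.07 against 10 kb of flank. In ∆hip1 0.13 on the plus strand was 0.46 with the scanner log ratio and 0.42 with loess on bright probes, and -0.02 with probes above background in all 4 channels. The minus-strand difference of 0.08 was -0.15 against 10 kb of flank and -0.05 with means. Mirror segments minus the rest of the stretch were 0.98 in asf1-1 and 0.60 in ∆hip1. With the scanner log ratio they were 2.02 and 1.45, with median centring 1.54 and 0.88, and with probes above background in all 4 channels 1.37 and 0.89, and 1.75 in asf1-1 with the series table.

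The 13 higher windows in asf1-1 became 20 with the scanner log ratio, 30 with median centring, 21 with loess on bright probes, 29 at 1.5-fold and 2 of 60 windows of 2 kb. The 11 lower ones became 18, 18, 5, 25 and 3 under the same settings. In ∆hip1 the 12 higher windows became 19 with median centring, 21 at 1.5-fold and 5 in 2-kb windows. The 1 lower window became 10 with the scanner log ratio, the series table or median centring, 2 without background subtraction, 3 with probes above background in all 4 channels and 13 at 1.5-fold. The stretch was 25 kb at the 35th percentile or from wild-type channels alone, 9 kb at the 15th percentile and 8 kb by the share of probes above background. Of the 396 values of named windows under alternatives, 343 stayed within the SD over probes and 53 did not, with 0 changes of sign among windows past 2-fold. Of the 30 values past 2-fold in named windows, 11 went under 2-fold with at least 1 alternative: 7 with crossed wild-type channels, 5 with loess on bright probes, 4 with median centring, 3 with means, 2 with the scanner log ratio or the series table and 1 without the filter on dim probes. Leaving out saturated probes changed nothing, as there were 0. The cause of these shifts was not tested. Dim signal limits the stretch, where 50 of 200 probes were not above background in any channel, as do the single array per mutant and the confounding of dye with genotype.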
